A study of Homo sapiens with 18 samples.

Results

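Cells with full-length Csy4 were compared with cells in which a split Csy4 had been given its trigger, both after transfection. The 6 libraries were taken by their column names in the raw count table, 3 labelled wtCsy4 and 3 labelled SplitCsy4_Grazoprevir, out of 18 libraries in the series. All are HEK-293T, a line derived from human embryonic kidney that makes the SV40 large T antigen, which binds and holds p53. Per the labels, 70000 cells were plated. They were transfected with either construct and 6 hours later received DMSO, the solvent (full-length Csy4), or 0.5 µM grazoprevir (split Csy4). The label of DMSO also reads 0.5 µM. The 2 groups therefore differ in the drug as well as in the enzyme, and both share the transfection. Further groups of 3 libraries give levels beside the comparison: split Csy4 with DMSO (untriggered), and cells whose labels name no transfection and that received DMSO or 0.5 µM grazoprevir alone. A sixth group, 0.1 µM rapamycin, entered the estimate of the spread, and its levels are given for *MDM2*, *CDKN1A*, *CDV3* and *INSIG1*. The labels name no construct without Csy4, no promoter and no measure of the enzyme's amount, and they leave unstated whether the 3 libraries in each group came from separate cultures. The p-values then cover the spread among these libraries, which may be technical.

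Csy4, also called Cas6f, is the endoribonuclease of a bacterial CRISPR system. It binds a short RNA hairpin in the CRISPR repeat, cuts the RNA at the base of the stem and stays bound to the product. In the split system its parts are meant to meet only when grazoprevir, a hepatitis C protease inhibitor, is present. Several of the genes below are targets of p53, a transcription factor that answers DNA damage and other stress by arresting the cell cycle, promoting repair or starting apoptosis. Heat shock genes answer misfolded protein through the factor HSF1, and sterol genes answer low cholesterol through SREBP2.

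Library totals were 12768305 to 15378381 counts with full-length Csy4 and 12362101 to 14659784 with triggered split Csy4. Genes with at least 1 count numbered 27352 to 27681 with full-length and 25792 to 26518 with triggered split Csy4, and the 10 most abundant genes took 3.398 to 3.46% against 3.823 to 3.904% of counts. TMM factors, which scale the totals, were 1.034 to 1.047 against 0.9973 to 1. These composition values moved with the groups, and their part in the results was not tested. Levels are CPM, counts per 1000000 counts in tested genes after this scaling, with the SD over 3 libraries. Fold changes are full-length over triggered split Csy4 on the log2 scale, with an approximate standard error (SE).

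Of the 17966 genes tested, 4008 (22.3%) were called at an adjusted p below 0.05 in edgeR's quasi-likelihood test. Full-length Csy4 was higher in 1823 (10.1%) and lower in 2185 (12.2%). Most of these differences were small: 81.6% of the called genes differed by less than 1.5-fold. At least 1.5-fold, 527 were higher (2.93%) and 211 lower (1.17%). At least 2-fold, 287 were higher (1.6%) and 55 lower (0.306%). In 6395 genes (35.6%) the groups did not overlap, with full-length Csy4 above in 3073 (17.1%) and below in 3322 (18.5%). The balance of directions depends on the scaling: 45.5% of calls were higher with TMM factors and 67.5% with library totals alone, which moved the median of all genes from -0.0032 to 0.056. Against a 1.2-fold change 370 higher and 277 lower genes were called.

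**Figure D1:**
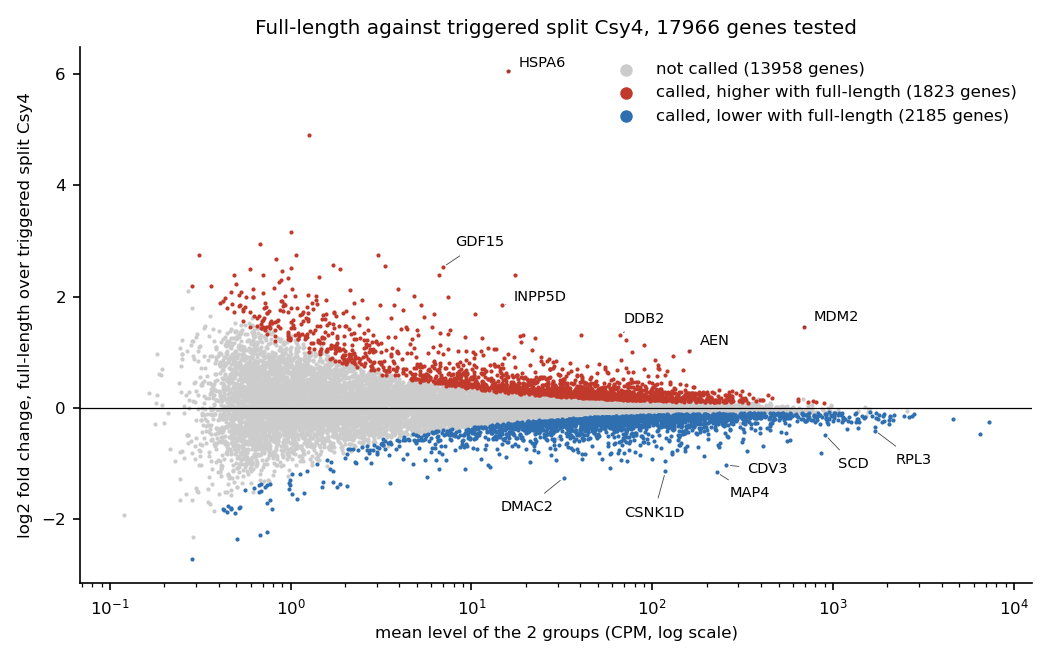
Each point is 1 of 17966 tested genes, with the mean CPM of the 2 groups on a log axis and the log2 fold change of full-length over triggered split Csy4 on the vertical axis. Red points (1823) were called higher and blue points (2185) called lower. HSPA6 stands highest at 6.05, and large rises lie mostly among genes of low level.

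Of the 35 gene lists described, that of p53 target genes had the largest share of members higher with full-length Csy4. Of 25 genes of arrest, feedback and repair, 21 were higher and 1 was lower, and in 22 the groups did not overlap. Their median was 0.70, against -0.0032 over all genes. Of 12 tested genes of the apoptosis arm, 8 were higher and 1 lower, at a median of 0.44. Both lists were written with earlier results of these data known.

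*MDM2* encodes the ligase that marks p53 for degradation and is itself a p53 target. It lies on chromosome 12 from 68808172 to 68850686 (GRCh38). Its level was 1008, 1023 and 992 CPM in the full-length libraries and 368, 366 and 369 CPM in the triggered ones. The 2 groups were far apart and each varied little, and the log2 fold change was 1.45 ± 0.035 (SE, adjusted p = 1.26e-48). Untriggered split Csy4 stood at 308 CPM and DMSO alone at 242 CPM (means of 3), so the triggered cells lay above both and the full-length cells far above all of them. Rapamycin alone stood at 847 CPM. *DDB2*, a sensor of ultraviolet damage, was at 93.9, 94.6 and 94.9 CPM with full-length and at 35.5, 38.8 and 39.8 with triggered split Csy4. The log2 fold change was 1.31 ± 0.061, and the triggered libraries were near the 36.3 CPM of DMSO alone (triggered against DMSO 0.07, adjusted p = 0.491).

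*CDKN1A*, which encodes the cell cycle inhibitor p21, was at 86.1, 88.8 and 84.8 CPM with full-length Csy4. In the triggered libraries it was at 46.6, 47.8 and 48 CPM, with no overlap, a log2 fold change of 0.87 ± 0.059. Rapamycin alone stood above both, at 103 CPM. *FDXR*, a mitochondrial reductase and p53 target, reached 57.5 ± 0.63 against 23.1 ± 1.4 CPM (SD, n = 3), and *TP53INP1*, a promoter of cell death, 100.4 ± 4 against 42.9 ± 2.7 CPM. Further members at or above the list median were the growth arrest gene *GADD45A* (1.12 ± 0.063), the translesion polymerase *POLH* (0.87 ± 0.051), the excision repair factor *XPC* (0.73 ± 0.05) and the p53 phosphatase *PPM1D* (0.70 ± 0.053). *RRM2B* (0.59 ± 0.053) and *RPS27L* (below) rose by less than the median, and 3 members were not called. *SESN1*, a stress-induced regulator of growth signalling, was the member that fell (-0.26 ± 0.056).

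In the apoptosis arm *AEN*, an apoptotic nuclease, stood at 214, 208 and 220 CPM with full-length and at 106.5, 105 and 105 CPM with triggered split Csy4. That is a log2 fold change of 1.02 ± 0.044, over 66.6 CPM in DMSO alone. *TP53I3*, an oxidoreductase induced by p53, differed by 1.26 ± 0.098, *PIDD1*, a death domain protein, by 0.83 ± 0.09 and *FAS*, the death receptor, by 0.75 ± 0.086. *FAS* overlaps *ACTA2*, and *TP53I3* overlaps *FAM228B*. Since the strand setting of the counting is not given in the sources used here, reads of such pairs cannot be told apart. *BAX* and *BBC3*, which act on the outer mitochondrial membrane, were higher by 0.46 ± 0.057 and 0.64 ± 0.14. *PERP*, a membrane protein of the p53 programme, was lower (-0.25 ± 0.047), and *PMAIP1* stood at 122 ± 7.6 against 110 ± 8.8 CPM without a call (adjusted p = 0.24).

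**Figure D2:**
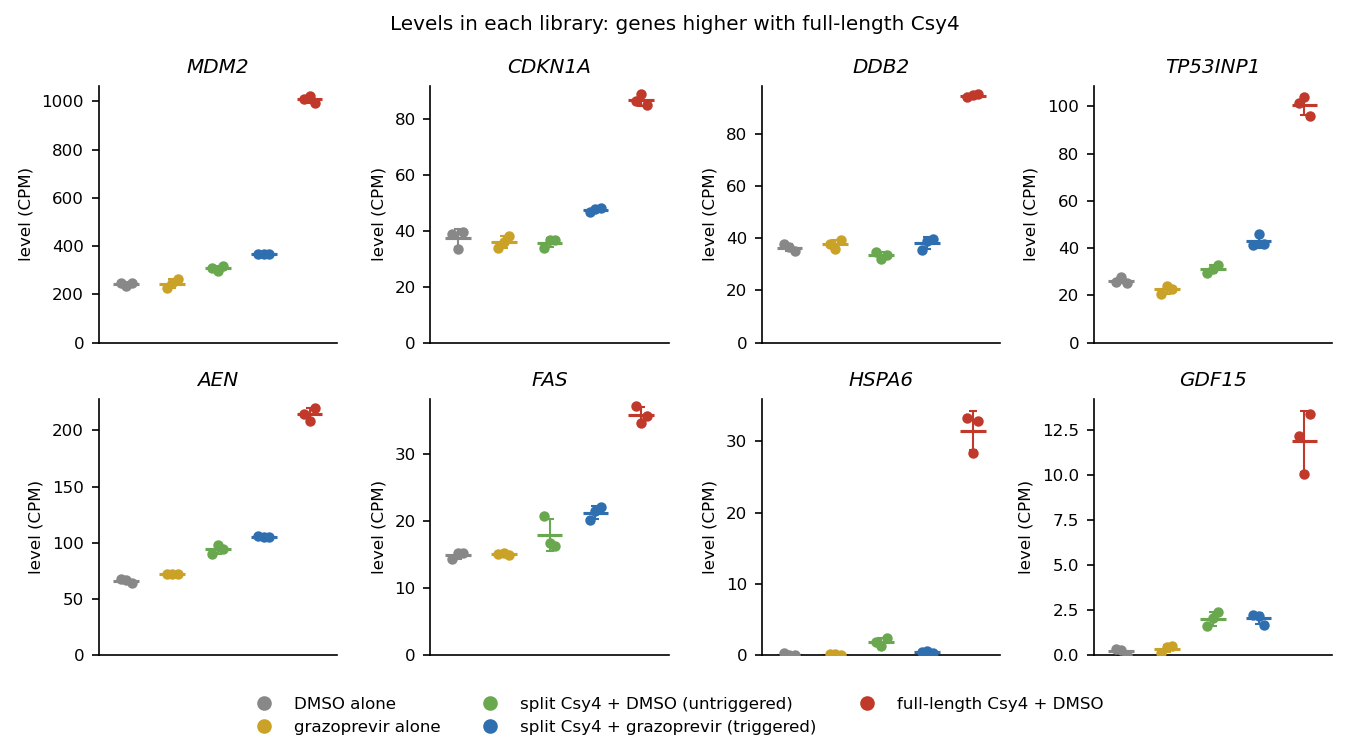
Levels in CPM (linear axis from 0) of 8 genes in each library of 5 groups, with horizontal bars for the mean and error bars for the SD of 3 libraries. The full-length libraries (red) lie above every other library plotted in each panel, and triggered split Csy4 (blue) averages 367.5 CPM in MDM2 against 1008 CPM with full-length Csy4.

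Heat shock genes did not move as a group, yet 1 of them gave the largest difference among the genes considered for naming. Of 24 chaperones and partners, 6 were higher and 5 lower, at a median of 0.006 (9 and 4 with library totals alone). *HSPA6*, a strictly stress-inducible HSP70 on chromosome 1 from 161524540 to 161526894, was at 33.3, 28.3 and 32.8 CPM with full-length Csy4. With triggered split Csy4 it was at 0.438, 0.569 and 0.41 CPM, that is 6, 7 and 6 counts. The log2 fold change was 6.05 ± 0.26, about 66.1-fold. Untriggered cells stood at 1.91 CPM and DMSO alone at 0.123 CPM. *HSPA6* is close in sequence to the neighbouring *HSPA7*, and reads could come from either copy.

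Other inducible chaperones differed far less. *DNAJB1*, an HSP40 partner of HSP70, stood at 234 ± 6.7 against 193 ± 3.4 CPM (0.28 ± 0.04), *HSPH1*, an exchange factor, differed by 0.17 ± 0.035 and *HSPA4L* by 0.31 ± 0.038. *HSP90AA1*, the inducible HSP90, was lower (-0.21 ± 0.027). *HSPA1B*, the major inducible HSP70, was lower (-0.29 ± 0.032), while its near-identical copy *HSPA1A* stood at 19.1 ± 4.7 against 20.9 ± 4.6 CPM with overlapping groups (adjusted p = 0.794). These copies share reads, so neither value is certain. *HSPA8*, the constitutive member, was not called (1522 ± 37 against 1497 ± 26 CPM, adjusted p = 0.609).

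The start region of *HSPA6* is shown because this gene carried the largest difference of the list. The 250 bases before its start (chr1:161524290-161524539, plus strand, RefSeq GRCh38.p14) hold 1 match to a heat shock element, in capitals, whose first base lies 74 bases before the start.
HSPA6: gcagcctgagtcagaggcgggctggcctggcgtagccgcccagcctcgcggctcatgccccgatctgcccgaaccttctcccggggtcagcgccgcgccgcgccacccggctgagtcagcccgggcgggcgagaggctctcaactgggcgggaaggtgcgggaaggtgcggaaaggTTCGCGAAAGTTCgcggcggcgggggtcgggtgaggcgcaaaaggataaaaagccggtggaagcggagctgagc
The letters searched were GAA, any 2 bases, TTC, any 2 bases and GAA, or their reverse complement (TTC, any 2 bases, GAA, any 2 bases and TTC), in 300-base promoters, which hold 250 bases before and 50 after a start. They occur in 172 of 35116 promoters (0.49%), in 6 of 23 promoters matched for the heat shock list and in 1 of 122 matched for the named genes, that of *HSPA6*. The other holders in the list were *CHORDC1*, *DNAJA1*, *DNAJB6*, *HSPA8* and *SERPINH1*. Of these only *SERPINH1*, a collagen chaperone, was called (0.23 ± 0.059), while the other 4 lay between -0.01 and 0.06.

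*GDF15*, a secreted stress cytokine, was at 12.1, 10 and 13.4 CPM with full-length Csy4 and at 2.26, 2.19 and 1.71 CPM with triggered split Csy4. The groups did not overlap, and the log2 fold change was 2.53 ± 0.23. Untriggered cells stood at 2.02 CPM and DMSO alone at 0.228 CPM. It was entered in the list of ATF4 targets, the genes of the integrated stress response, where more members were lower than higher. Of 33, 5 were higher, *GDF15* included, 13 were lower and 15 were not called, at a median of -0.13. Over all tested genes 10.1% were higher and 12.2% lower. Of 2470 genes averaging 100 CPM or more, 796 were lower and 282 higher. Against a 1.2-fold change 1 ATF4 target was higher and 1 lower. *SLC7A11*, the cystine importer, was lower (-0.47 ± 0.066), as were *PHGDH*, the first enzyme of serine synthesis (-0.29 ± 0.041), *XPOT*, a tRNA exporter (-0.27 ± 0.031), and *SLC7A1*, an arginine transporter (-0.29 ± 0.041). *ATF4* itself was at 539 ± 22 against 613 ± 5.1 CPM (-0.19 ± 0.032). Its partner *DDIT3* was not called, at 17.9 ± 0.56 against 16.6 ± 0.37 CPM (adjusted p = 0.513).

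Beside *GDF15* and *HSPA6*, the largest rises among genes with at least 5 CPM were of low level in the triggered cells. *INPP5D*, a lipid phosphatase best known in blood cells, was at 22.3, 25.2 and 21.5 CPM with full-length and at 6.06, 4.87 and 8.06 CPM with triggered split Csy4 (1.85 ± 0.13). *NHLH2*, a neuronal transcription factor, was at 10.8, 11.7 and 13.1 against 3.43, 2.19 and 3.28 CPM (1.99 ± 0.22). *DHRS2*, a short-chain dehydrogenase, was at 11, 9.41 and 12.9 against 2.55, 1.63 and 2.12 CPM (2.39 ± 0.22). In these 3 genes the lowest full-length library exceeded the highest triggered one by more than the range within either group.

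*IP6K3*, an inositol hexakisphosphate kinase, differed by 2.74 ± 0.36 and *PLXNB3*, a semaphorin receptor, by 2.55 ± 0.33. *PDE4C*, a cyclic AMP phosphodiesterase, differed by 2.14 ± 0.28, and the epidermal transcription factor *GRHL3* by 1.84 ± 0.22. *GRIP2*, a glutamate receptor scaffold, differed by 1.85 ± 0.27, *KANK3* by 1.77 ± 0.24, *ACTA2*, smooth muscle actin, by 1.69 ± 0.14 and *CRIP2*, a LIM domain protein, by 1.68 ± 0.19. *GRIP2* overlaps *SLC6A6*, *KANK3* overlaps *RPS28*, and *GRHL3* overlaps *STPG1*, with the same limit on assigning reads. For *IP6K3* and *GRIP2* the call did not hold once the drug difference was taken out (below).

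Of 27 early response genes of the AP-1, EGR, IER and KLF families, 4 were higher and 1 lower, at a median of 0.15. Over all tested genes 10.1% were higher and 12.2% lower. *ATF3*, a stress-induced repressor, was at 96.8, 105 and 101.5 CPM against 76.9, 74.1 and 73.7 CPM (0.43 ± 0.054). *IER2* and *IER5* were higher by 0.31 ± 0.084 and 0.31 ± 0.06. *MYC* was the member that fell, from 148 ± 4 with triggered to 115 ± 7.4 CPM with full-length Csy4 (-0.37 ± 0.043). The AP-1 genes *FOS* (3.9 ± 0.72 against 2.65 ± 0.32 CPM) and *JUN* (239 ± 9 against 255 ± 7.6 CPM) were not called. Of 21 genes of ERK feedback 3 were higher, among them the phosphatase *DUSP14* (0.64 ± 0.082) and the receptor *EPHA2* (0.42 ± 0.072), and 3 were lower, among them *EPHA4* (-0.51 ± 0.077) and the inhibitor *SPRY2* (-0.47 ± 0.11).

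Host transcripts of small nucleolar RNAs, most of which are noncoding and rapidly degraded, were higher in 12 of 20 and lower in 1, at a median of 0.20. *SNHG15* stood at 60.3 ± 5.5 against 39.1 ± 3 CPM (0.63 ± 0.07), *SNHG17* at 36.6 ± 2.4 against 23.9 ± 2.2 CPM (0.61 ± 0.086) and *SNHG32* at 75.5 ± 3 against 55.2 ± 3.4 CPM (0.45 ± 0.059). *SNHG3* differed by 0.28 ± 0.049. *SNHG16* was the host that fell (-0.18 ± 0.04). Among 17 tested replication-dependent histone genes 5 were higher and 1 lower at a median of 0.93, all at low level: *H2BC5* stood at 4.91 ± 0.78 against 1.99 ± 0.86 CPM (1.28 ± 0.25) and *H1-4* at 1.05 ± 0.39 against 2.69 ± 0.81 CPM (-1.36 ± 0.33). Histone mRNAs mostly lack the poly(A) tail that the libraries were selected for, and copies of these genes share reads. Without triggered replicate 2, 3 histone genes were higher.

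The largest falls reached a little over 2-fold in genes of middle and high level. *MAP4*, a microtubule-binding protein on chromosome 3 from 47850695 to 48088848, was at 142.8, 137.7 and 142 CPM with full-length Csy4 and at 315, 306 and 320 CPM with triggered split Csy4. The log2 fold change was -1.16 ± 0.039 (adjusted p = 1.22e-39). Untriggered cells (324 CPM), grazoprevir alone (305 CPM) and DMSO alone (314.5 CPM) all stood with the triggered cells. *CDV3*, on chromosome 3 from 133573686 to 133590274, was at 164, 172.5 and 170.5 CPM with full-length and at 352, 341 and 340 CPM with triggered split Csy4 (-1.03 ± 0.035), with untriggered cells, grazoprevir alone and DMSO alone between 342 and 348 CPM and rapamycin alone at 325 CPM.

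*CSNK1D*, a casein kinase of the circadian clock, was at 72.7, 70.7 and 78.4 CPM with full-length and at 170, 159 and 160 CPM with triggered split Csy4 (-1.14 ± 0.047). It overlaps *SLC16A3*, and in *CSNK1D* the triggered cells also stood above the 124.6 CPM of DMSO alone. *DMAC2*, an assembly factor of the respiratory chain, was at 19.5, 16.9 and 20.9 against 43.4, 43.3 and 49.9 CPM (-1.25 ± 0.078). *CHP1*, a calcium-binding partner of sodium-proton exchangers, was at 34.6, 42 and 36 against 78.3, 78.6 and 81.8 CPM (-1.08 ± 0.067). In each of these genes the full-length libraries lay below every triggered library.

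Of lower level were *NREP* (-1.25 ± 0.17), the Rab5 exchange factor *RIN3* (-1.10 ± 0.16), *IGDCC4* (-1.09 ± 0.13), *PWWP3B* (-1.05 ± 0.12) and *SLC45A4* (-1.02 ± 0.11). *FRMD3* was at 2.01 ± 1 against 5.05 ± 0.67 CPM (-1.34 ± 0.24) and the inositol monophosphatase *IMPA2* at 3.17 ± 0.37 against 6.35 ± 0.8 CPM (-1.01 ± 0.18). All 12 of the largest falls stayed called with the drug difference taken out.

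**Figure D3:**
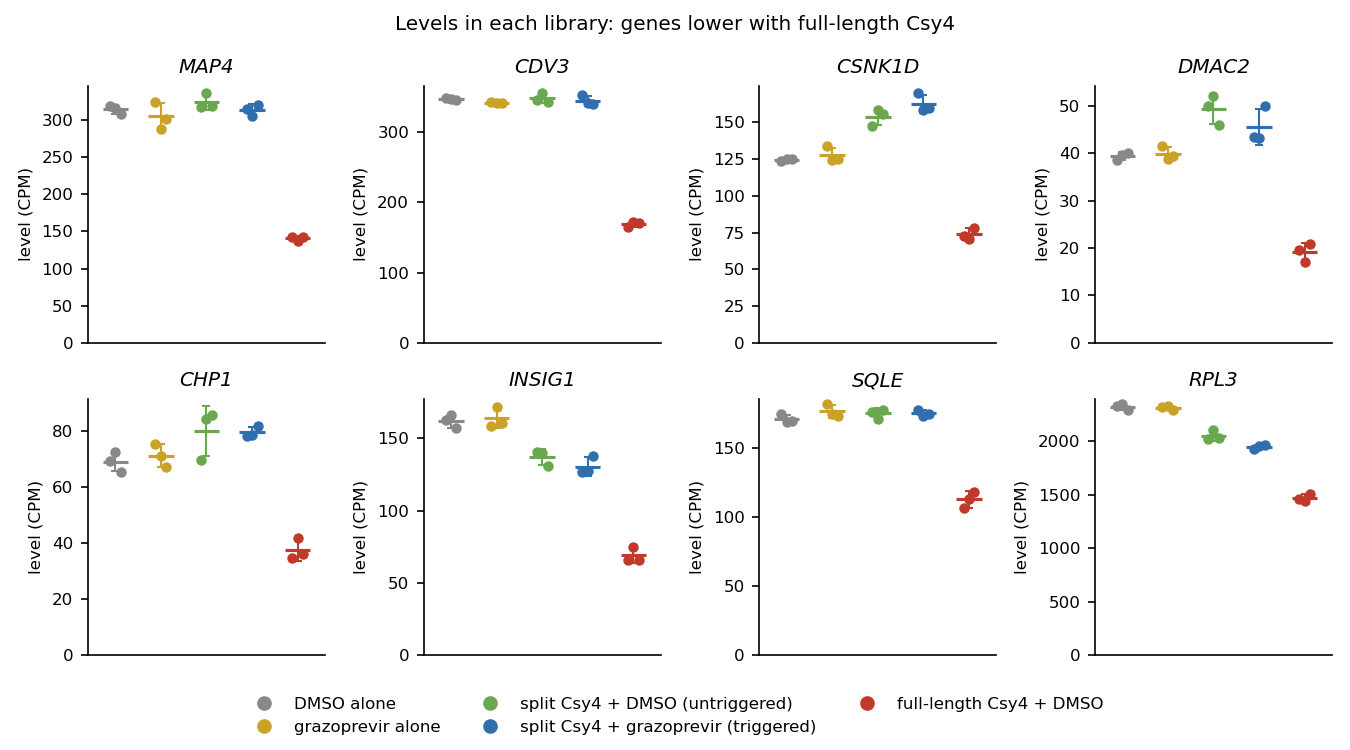
Levels in CPM (linear axis from 0) of 8 genes in each library of 5 groups, with bars for the mean and error bars for the SD of 3 libraries. The full-length libraries (red) lie below every other library plotted in each panel, and in MAP4 and CDV3 the other 4 groups lie close together.

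The stem that Csy4 binds in its own CRISPR repeat has the letters CTGCC on one side and GGCAG on the other, and transcripts were searched for this pair. The search was made after the values were seen and is a description without a test. Of 11417 genes with a GENCODE 29 transcript and at least 5 CPM in the higher group, 258 (2.26%) held CTGCC, any 5 bases and GGCAG on the transcript strand (its reverse complement is the same pattern). Among 130 of these genes called lower by at least 1.5-fold, 12 held it (9.23%), against 41 of 1950 called lower by less (2.1%) and 3 of 200 called higher by at least 1.5-fold (1.5%). With 3, 4, 6, 7 and 8 bases between the paired letters the counts were 2, 3, 3, 5 and 4 of 130. These are 1.54, 2.31, 2.31, 3.85 and 3.08%, against 1.87, 2.06, 2.42, 2.29 and 2.48% of all genes searched. In the longest transcript alone the 5-base pattern was held by 9 of 130 and 196 of 11417 (1.72%). The longest transcripts had a median of 4729 bases in the 130 falling genes and 3825 bases in all genes searched. Other 5-base stems also occurred in falling genes. CTGCC ranked 7 by number of falling genes among 1020 stems. By share of holders that fell it ranked 12 among 727 stems with at least 40 genes. CTGCT occurred in 14 of the 130 and in 321 of all genes searched.

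The sites below are shown because these genes fell by 1.5-fold or more; the paired letters are in capitals and the 5 bases between them in lower case. Sequences are GENCODE 29 transcripts, and coordinates of the 15 motif letters are on GRCh38.
CSNK1D: acgcacaCTGCCagccaGGCAGaggggcg
EAPP: gaagatgCTGCCgagaaGGCAGagacaga
SMARCA1: caggacaCTGCCgcagtGGCAGccaccgt
PPP2R5A: cccacctCTGCCggataGGCAGagttttg
CREB1: agtacagCTGCCcaatgGGCAGacagttc
CCNY: ggttctgCTGCCgtaaaGGCAGaaatttt
The site of *CSNK1D* (chr17:82239800-82239814, minus strand) is held by 1 of 26 transcripts, in its 3-prime UTR. For the other genes the annotation is that of the transcript shown. That of *EAPP* (chr14:34516429-34516443, minus strand) is held by 2 of 5 transcripts and is coding. *SMARCA1* (chrX:129523343-129523357, minus strand) has it in 4 of 5, the one shown being a retained-intron transcript, and *PPP2R5A* (chr1:212360789-212360803, plus strand) in 2 of 5, there in the 3-prime UTR. *CREB1* (chr2:207560283-207560297, plus strand) has it in 12 of 17, there in coding sequence, and *CCNY* (chr10:35571198-35571212, plus strand) in 4 of 10, there in the 3-prime UTR.

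*EAPP*, an E2F-associated phosphoprotein, was at 48.3, 46.3 and 44.3 CPM with full-length and at 85.6, 88.3 and 92 CPM with triggered split Csy4 (-0.94 ± 0.055). *SMARCA1*, a chromatin remodelling ATPase, was at 55.5 ± 1.9 against 93.8 ± 0.63 CPM (-0.76 ± 0.052). *CREB1*, the cyclic AMP response factor, was at 48.8 ± 2.3 against 75.7 ± 4 CPM, with DMSO alone at 75.8 CPM (-0.63 ± 0.059). The other holders among the falling genes were *IGDCC4*, *ANO10*, *PPP2R5A*, *CECR2*, *HSPA12A*, *CCNY*, *CLMN* and *PHKA2*, from -1.09 to -0.60. *MAP4* and *DMAC2*, which fell more than any of these holders, and *CDV3* held no match. Over all 258 holders, 53 were called lower (20.5%) and 29 higher (11.2%), against 18.2% and 12.9% of all genes searched. With the drug difference taken out, as described below, 15.9% of holders were lower and 3.1% higher, against 11.5% and 7.33%, and against untriggered split Csy4 23.6% were lower and 14.3% higher, against 22.3% and 16.6%.

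**Figure D4:**
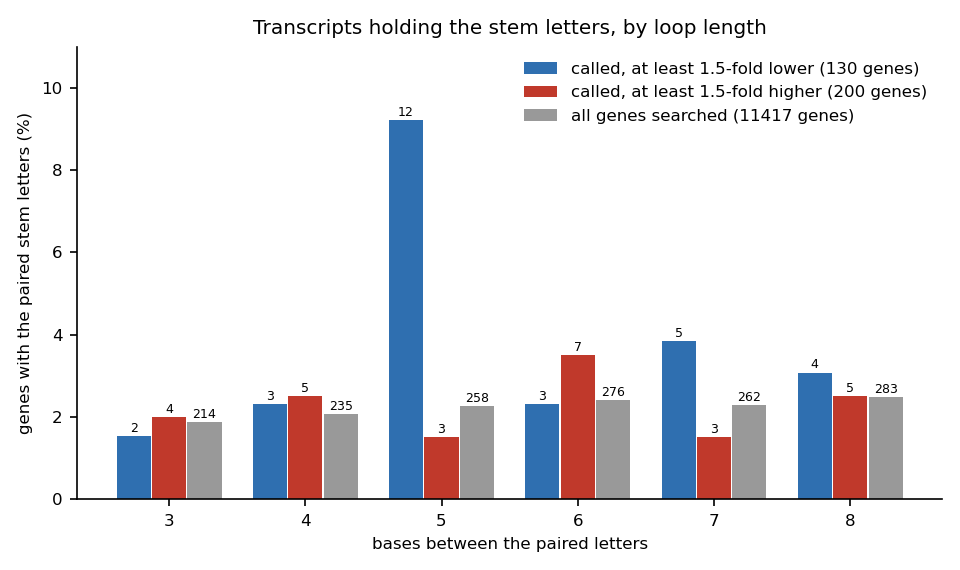
Share of genes (%, bars from 0) whose transcripts hold the stem letters, by the number of bases between the pair, for genes called at least 1.5-fold lower, at least 1.5-fold higher and all genes searched. Numbers on the bars count genes, and the tallest bar is 12 of 130 genes at 5 bases.

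Sterol synthesis was lower across most of its enzymes. Of 23 tested genes 18 were lower and 1 higher, at a median of -0.36, with 20 showing no overlap between groups. *INSIG1*, the sterol-sensing protein that holds SREBP in the endoplasmic reticulum, was at 66.1, 74.9 and 66 CPM with full-length and at 126.4, 127 and 137.7 CPM with triggered split Csy4 (-0.92 ± 0.05), and rapamycin alone stood at 59.1 CPM. *SQLE*, squalene epoxidase, was at 106.5, 113.6 and 118.6 against 178, 173 and 175 CPM (-0.63 ± 0.042). Triggered and untriggered cells and DMSO alone lay together in *SQLE* (175, 175 and 171 CPM).

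*HMGCS1*, which makes the first committed precursor, differed by -0.66 ± 0.045 and *FDFT1*, squalene synthase, by -0.46 ± 0.042. In *HMGCS1*, unlike *SQLE*, triggered (172 CPM) and untriggered cells (184 CPM) stood above the 146 CPM of DMSO alone. The sterol gene that rose was *TM7SF2*, a sterol reductase at low level (11.3 ± 1.5 against 7.13 ± 0.99 CPM, 0.65 ± 0.14). Of 11 fatty acid genes 8 were lower and none higher, at a median of -0.23. *SCD*, the stearoyl desaturase, was at 751, 755 and 759 against 1043, 1053 and 1068 CPM (-0.48 ± 0.028), and *ACACA*, acetyl-CoA carboxylase, differed by -0.40 ± 0.044.

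Cytosolic ribosomal protein genes were slightly lower together. Of 81 tested, 55 were lower and 1 higher, at a median of -0.14. With library totals alone 41 were lower, and against a 1.2-fold change 2. *RPL3* was at 1464, 1438 and 1506 CPM with full-length and at 1923, 1949 and 1965 CPM with triggered split Csy4 (-0.41 ± 0.028), while DMSO alone stood at 2318 CPM. *RPL32* differed by -0.57 ± 0.036 and overlaps *CAND2*, *RPSA* by -0.24 ± 0.029 and *RPL4* by -0.23 ± 0.027. The member that rose, *RPS27L* (0.36 ± 0.06), is a p53-induced relative that is also in the p53 list. Many ribosomal protein genes have processed copies elsewhere in the genome that can share reads.

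Translation factors whose mRNAs carry a 5-prime TOP start, the motif through which mTOR controls translation, were lower in 14 of 17 with none higher, at a median of -0.18. *EEF1A1*, the elongation factor that brings tRNA, was at 6632 ± 168 against 7889 ± 49 CPM (-0.25 ± 0.025), *EIF3L* differed by -0.39 ± 0.035 and *EIF3E* by -0.30 ± 0.032. Against a 1.2-fold change 1 of the 14 stayed called. Mitochondrial ribosomal proteins showed no such shift: 5 of 76 were higher and 8 lower, at a median of -0.03 (11 and 3 with library totals alone). Without full-length replicate 3, 3 were higher, and 5, 4 and 4 were lower without full-length replicate 1, full-length replicate 2 and triggered replicate 2.

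Of 21 glycolysis genes 10 were lower and none higher, at a median of -0.13. *HK2*, hexokinase, differed by -0.41 ± 0.056, *TPI1* by -0.24 ± 0.032 and *LDHB* by -0.24 ± 0.03. *GAPDH* was at 1693, 1635 and 1758 CPM against 2001, 1996 and 2077 CPM (-0.26 ± 0.028). Against a 1.2-fold change 0 of the 21 were called. For scale, 12.2% of all tested genes were called lower and 10.1% higher. Of 2470 genes averaging 100 CPM or more, 796 were called lower and 282 higher. Of 63 nuclear genes of the respiratory chain and ATP synthase 21 were lower and none higher, at a median of -0.11. That became 8 lower and 1 higher with library totals alone and 14 lower with the length and GC correction. Without full-length replicate 1 or triggered replicate 3 it was 13 lower, and with the drug difference taken out 2 lower and 1 higher. The stalk subunit *ATP5PB* had the largest difference (-0.37 ± 0.036). Of 15 hypoxia targets 7 were lower, led by *NDRG1* (-0.55 ± 0.053), and 2 higher, among them the demethylase *KDM3A* (0.23 ± 0.048). With library totals alone these counts were 2 and 3. The lower count was 4 without full-length replicate 2, 3 without triggered replicate 1 and 4 without triggered replicate 3, and leaving out any 1 library other than full-length replicate 3 left 1 higher.

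Genes of the cytoskeleton and of YAP and SRF fell more often than they rose, 8 against 3 of 23, at a median of -0.09 (6 against 4 with library totals alone). Over all tested genes 12.2% were lower and 10.1% higher. *VCL*, vinculin of focal adhesions, was at 199, 195 and 192 against 256, 260 and 254 CPM (-0.39 ± 0.038). *CALD1*, caldesmon, differed by -0.42 ± 0.045 and *MYH9*, nonmuscle myosin, by -0.31 ± 0.038. *ACTB* was at 1683 ± 43 against 1792 ± 18 CPM (-0.09 ± 0.029, adjusted p = 0.0142). That call was lost with library totals alone, against a 1.2-fold change and in 4 of 6 fits that left out 1 library: full-length replicate 1 or 2, or triggered replicate 1 or 3.

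The remaining lists had members in both directions or few calls. In DNA replication 8 of 37 members were higher and 6 lower, in mitosis 3 and 3 of 30, in ribosome biogenesis 5 and 6 of 31 and in the unfolded protein response 2 and 5 of 21. With library totals alone these became 12 and 3, 9 and 1, 10 and 2, and 4 and 2, so no direction is given for them. In DNA replication 4 were higher without full-length replicate 3 and 5 without triggered replicate 2. In DNA replication, the ribonucleotide reductase subunits *RRM2* (-0.34 ± 0.037) and *RRM1* (-0.23 ± 0.034) fell and the ligase *LIG1* rose (0.32 ± 0.054). RNA decay genes were higher in 7 and lower in 9 of 42 (9 and 6 with library totals alone), and in 3 rather than 7 without triggered replicate 2. The exonuclease *XRN1* was at 77.9 ± 6.9 against 105 ± 5.1 CPM (-0.43 ± 0.053) and *AGO1*, an Argonaute protein, at 104 ± 1.8 against 138 ± 8.4 CPM (-0.41 ± 0.048), while the decapping factor *DCP1B* rose (0.43 ± 0.079).

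Interferon-stimulated genes were higher in 7 and lower in 2 of 28, at a median of 0.14 (10 and 0 with library totals alone), with *IFIT3* at 13.3 ± 1.5 against 9.51 ± 0.69 CPM (0.48 ± 0.13). Antioxidant genes were higher in 1 and lower in 7 of 19 (2 and 4 with library totals alone), with *TKT* of the pentose phosphate path at -0.28 ± 0.039. Proteasome genes were higher in 2 and lower in 7 of 32 (3 and 2 with library totals alone). The lower count was 2 without full-length replicate 1, triggered replicate 2 or triggered replicate 3, and 4 when 1 of the other 3 libraries was left out. *PSMA6* differed by -0.60 ± 0.047 and the other called proteasome genes by 0.17 or less in size. Counts were 2 and 4 of 20 for tRNA synthetases, where *CARS1* rose (0.45 ± 0.056) and *EPRS1* fell (-0.32 ± 0.032). They were 3 and 5 of 28 for lysosome genes, 2 and 6 of 23 for mTOR complexes and regulators, 2 and 1 of 19 for SR splicing factors, 1 and 0 of 13 for NF-kB targets and 1 and 0 of 8 for xenobiotic response genes. With library totals alone they became 4 and 3 for tRNA synthetases, 7 and 2 for lysosome genes, 4 and 3 for mTOR regulators and 9 and 1 for SR factors. The lower count of lysosome genes was 3 without full-length replicate 1 or any 1 of the triggered replicates. For each of the 6 libraries, leaving it out changed some counts of 3 or fewer in these lists. *MTOR* (187 ± 15 against 176 ± 5.9 CPM) and *FKBP1A* (291 ± 5.1 against 283 ± 7.3 CPM) were not called and their groups overlapped. Both were called higher with library totals alone (0.15, adjusted p = 0.0139, and 0.10, adjusted p = 0.0179) and with the length and GC correction (adjusted p = 0.000631 and 0.0266), and *MTOR* also without full-length replicate 3 (adjusted p = 0.0378).

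The drug difference between the groups was taken out with the grazoprevir and DMSO groups, as (full-length minus triggered) plus (grazoprevir minus DMSO), which holds if the drug adds on the log scale. This left 2308 called genes (12.8%), 946 higher (5.27%) and 1362 lower (7.58%). Counts of p53 genes were as before in arrest, feedback and repair (21 higher and 1 lower of 25, median 0.76) and 7 higher and 1 lower of 12 in apoptosis. *MDM2* was at 1.47 (SE 0.0503), *HSPA6* at 5.98 (adjusted p = 0.000452), *GDF15* at 3.16, *MAP4* at -1.20 and *CDV3* at -1.05. Sterol genes were lower in 15 and higher in 1 of 23. Several lists lost more than 1.5 times of their calls: lower members went from 55 to 18 of 81 ribosomal proteins (5 higher, median -0.05), from 21 to 2 of 63 respiratory chain genes, from 13 to 8 ATF4 targets, from 7 to 3 hypoxia targets and from 7 to 1 proteasome genes. They also went from 8 to 3 mitochondrial ribosomal proteins, from 7 to 4 antioxidant genes, from 6 to 3 mTOR regulators, from 6 to 1 ribosome biogenesis genes and from 5 to 1 genes of the unfolded protein response. Higher members went from 8 to 4 DNA replication genes, from 7 to 4 RNA decay genes, from 7 to 2 interferon genes and from 5 to 1 histone genes. Counts of 3 or fewer also fell in several lists. For example, higher members went from 3 to 1 YAP and SRF genes and from 3 to 1 mitosis genes. Higher lysosome genes went from 3 to 0 and higher hypoxia targets from 2 to 0. *IP6K3* was no longer called (2.08, adjusted p = 0.62), on 0.0215 and 0.0405 CPM in the grazoprevir and DMSO groups, and neither was *GRIP2* (0.62, adjusted p = 0.452). This contrast carries the error of 4 groups, so a lost call does not show that the difference was due to the drug.

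With the drug held at DMSO, full-length could be set against untriggered split Csy4. This comparison shares the full-length libraries with the main one, so its values are only placed beside it. In it 5024 genes were called (28%), 2345 higher (13.1%) and 2679 lower (14.9%). *MDM2* stood at 1.71 against 1.45 in the main comparison, *CDKN1A* at 1.28 against 0.87, *TP53INP1* at 1.69 against 1.23, *HSPA6* at 4.02 against 6.05 and *GDF15* at 2.54 against 2.53. *MAP4* stood at -1.20 against -1.16, *CDV3* at -1.04 against -1.03, *INSIG1* at -0.99 against -0.92 and *RPL3* at -0.48 against -0.41. Ribosomal proteins were lower in 69 of 81 and respiratory chain genes in 41 of 63.

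Shares of called genes differed with the kind and length of transcript. Of 2591 long noncoding RNAs 7.22% were higher and 1.47% lower, at a median of 0.12, and of 13329 protein-coding genes 11.5% were higher and 15.5% lower, at a median of -0.02. Among 3076 genes with transcripts of 5734 bases or more 11% were higher and 21.7% lower, and among 3077 with at most 1859 bases 5.78% and 10.3%. Across 15381 genes, which are not independent replicates, the fold change had a Spearman correlation of -0.057 with transcript length and 0.045 with GC content. With the level in triggered cells it was -0.223 over 17966 genes, though that level also enters the fold change. Of 7862 genes under 10 CPM, 526 were higher and 185 lower, at a median of 0.08. The part of level in the shares by kind of transcript was not tested.

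Markers of the line and of other cells were checked. Of 10 genes known from HEK-293 cells 9 were tested, with summed levels of 701 to 712 CPM with full-length and 769 to 796 CPM with triggered split Csy4. With TMM factors 3 fell (*LIN28B*, *CDH2* and *VIM*), 1 rose (*KRT8*, which overlaps *KRT18*), and the neurofilament gene *NEFM* had 0 and 1 counts. With the drug difference taken out 1 of the 9 was called lower and 0 higher. For 11 fibroblast markers the sums were 38.6 to 47.7 against 47.8 to 56.5 CPM, with *COL1A2* at 0 in all 6 libraries and 1 of 4 tested members called (*COL3A1*, -0.46 ± 0.084). For 12 blood markers they were 5.73 to 8.02 against 4.55 to 5.26 CPM, with *PTPRC*, which defines leukocytes, at 0 and 1 counts, and for 10 markers of epithelial carcinoma lines 11.1 to 13.3 against 13.1 to 14.8 CPM, with *KRT19* at 0, and no tested member of either list was called.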

How the data were processed

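The deposited table holds raw counts per gene, made by the authors. Builds and tools in the submitters' processing notes are hg38, HTSeq 0.6.1, HISAT2 2.2.1, DESeq2 1.44.0 and cutadapt 1.9.1, given there with no role. The strand setting of the counting is not given in the sources used here. Per the labels' protocols, poly(A) RNA was selected.

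Counts were fitted in edgeR 4.0.16 (R 4.3.3): filterByExpr, which left 17966 of 59251 genes with 99.84% of counts, TMM factors, and 1 robust quasi-likelihood fit of 18 libraries, with a mean for each of 6 groups and a common biological coefficient of variation of 4.15%. P-values are Benjamini-Hochberg adjusted over all tested genes. The SE is the absolute log2 fold change over the square root of F. Named genes are the 12 largest rises and falls among called genes whose higher group averaged 5 CPM or more and whose groups did not overlap, up to 4 called members of each of 35 lists, and 10 fixed genes. Unnamed loci, pseudogenes, readthrough and antisense genes and copies sharing reads were passed over. Other list members are examples and were chosen after their values were seen. Some genes that the rule names are not reported here. The members and lists were chosen with earlier results of these data known. Scripts were tested on simulated data. Alternatives are given in the closing section.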

Additional observations from a re-analysis of the deposited data

How the results depend on the processing

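Counts of called genes stayed within 1.5 times of the values given under most alternatives: median-of-ratios factors, no filter, at least 1 CPM in 3 libraries, DESeq2 1.42.0, a fit restricted to the groups in each contrast, and the length and GC correction. Against a 1.2-fold change the counts fell to 647 (370 higher, 277 lower), to 416 with the drug difference taken out and to 863 against untriggered split Csy4. With library totals alone 1312 genes were called lower. Leaving out 1 library at a time gave 3203 to 3378 calls (1417 to 1548 higher, 1746 to 1880 lower), 1929 to 2080 with the drug difference taken out and 4133 to 4400 against untriggered split Csy4. Same-numbered full-length and triggered libraries did not deviate together (correlations -0.026, 0.0292 and -0.00143 over 10136 genes). This check covers these 2 groups only and cannot show whether the numbers pair the samples. With replicate number as a block 3910, 2290 and 4960 genes were called. The length and GC correction, possible for 15381 genes, gave 4208 calls against 3901 in the same genes uncorrected, a base chosen after seeing the data. Of 161 results for single genes, none changed direction under any of these alternatives. 86 lost their call against a 1.2-fold change. With library totals alone 9 lost it, with no filter 4, with DESeq2 2 and with the replicate block 1. Each fit that left out 1 library lost 5 or 6 calls. 2 genes gained a call, *MTOR* and *FKBP1A*, after the length and GC correction and with library totals alone. *MTOR* also gained one without full-length replicate 3. The cause was not tested for any of these changes. At 12362101 to 15378381 counts a library, differences in genes under about 1 CPM rest on few counts.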

Other observations

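Among abundant genes falls outnumbered rises, also at 1.5-fold or more, while among genes of low level large rises outnumbered large falls. This grouping was made after the values were seen. It used TMM factors alone, and the balance of directions depends on the scaling. Of 2470 genes averaging 100 CPM or more over both groups, 282 were called higher and 796 lower with full-length Csy4, and 10 were higher and 26 lower by at least 1.5-fold. Of 7862 genes under 10 CPM, 423 were higher and 112 lower by at least 1.5-fold. *KPNB1*, importin beta of nuclear import, was at 625, 614 and 634 CPM with full-length and at 1105, 1088 and 1096 CPM with triggered split Csy4, a log2 fold change of -0.81 ± 0.03 (SE). Other abundant genes that fell were *MIB1*, a ubiquitin ligase of Notch signalling (-0.86 ± 0.042), *KTN1*, kinectin (-0.77 ± 0.036), *ATP6V1C1*, a subunit of the vacuolar proton pump (-0.83 ± 0.045), *CTR9* of the PAF1 transcription complex (-0.72 ± 0.04) and *SEPTIN11*, a septin (-0.71 ± 0.036). DMSO alone lay between the 2 groups in *KPNB1* (946 CPM) and *ATP6V1C1* (140 CPM), and above both in *MIB1* (323 CPM) and *CTR9* (207 CPM). In *KTN1* (409 CPM) and *SEPTIN11* (281 CPM) DMSO alone was near the triggered cells. The 10 abundant genes that rose by at least 1.5-fold included 7 of the p53 lists (*MDM2*, *AEN*, *POLH*, *ZMAT3*, *XPC*, *PPM1D* and *RRM2B*) together with *E2F7* and *PLXNB2*.

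*ZSCAN4*, a zinc finger gene known from early embryonic cells, had 38, 31 and 38 counts in the full-length libraries and 2, 0 and 1 in the triggered ones. It lay below the level set for naming and was singled out after its values were seen.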
